A study of Mus musculus with 4 samples.

Results

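The respiratory chain genes described here are the protein-coding genes whose symbols begin with Nduf, Uqcr, Cox4 to Cox8, Atp5 or Sdh (a to d), together with the mitochondrial genes mt-Nd, mt-Co, mt-Cytb and mt-Atp. The rule found 103 of the 24706 genes in the files, 90 of them nuclear and 13 mitochondrial. The nuclear members belonged to complex I (44 genes), complex II (4), complex III (8), complex IV (17) and complex V (17). The rule uses gene names and no measured values.

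RNA-seq was carried out on 4 mouse libraries labelled as myeloid cells, 2 with the genotype wt and 2 with the genotype cko. In the study, wt stands for PD-1f/f mice, which carry LoxP sites around an exon of Pdcd1. The name cko stands for PD-1f/f; LysM-Cre mice, which also express Cre from the lysozyme promoter of myeloid cells. Both groups therefore carry the floxed allele according to the figures of the study, although its methods name wild-type controls. The pups were taken within a few days of birth, at ages that differ by a day between methods and results. The results describe CD11b+ cells sorted from the liver and the methods RNA of whole fetal livers, and these accounts were not resolved. The labels do not say whether the libraries came from separate animals, so that p-values measure the spread between these libraries. The 2 wt libraries differ in the sex-linked genes given below and so did not come from the same animal. For the 2 cko libraries the spread may be technical.

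The respiratory chain of the inner mitochondrial membrane passes electrons from NADH (complex I) or succinate (complex II) through ubiquinone to complex III, and through cytochrome c to complex IV, which reduces oxygen. Complexes I, III and IV pump protons, and complex V, the ATP synthase, uses the gradient to make ATP. The mitochondrial genome encodes core membrane subunits of complexes I, III, IV and V, and the nuclear genome all other subunits, so that both genomes have to be expressed for a complete chain. Complex II is encoded by nuclear genes only. Mature neutrophils are known for a low mitochondrial content and for relying on glycolysis.

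Depth was 17691505 to 22212407 counted reads per library, as recovered from the values. The authors deposited FPKM (reads divided by the length of the gene and by library depth), so that levels of different genes can be compared per length. Pdcd1 measured 28.5 and 34.7 FPKM in wt and 17.1 and 21.4 FPKM in cko (log2 fold change -0.69, unadjusted p = 0.0114 and Benjamini-Hochberg adjusted p = 0.218 by limma), so that it was lower but not absent in cko. The deposited value sums all exons, also those outside the floxed part. The pan-myeloid marker Itgam, which encodes CD11b, was present at 48.5 to 54.3 FPKM. Summed erythroid markers were 3789 and 2383 FPKM in wt against 1457 and 1558 FPKM in cko, with 7 of 14 tested markers lower at an unadjusted p under 0.05, and summed hepatocyte markers were 101 and 167 against 72.5 and 86.1 FPKM, with 3 of 11 lower. Summed neutrophil markers were 162328 and 138201 FPKM in wt and 112208 and 93251 FPKM in cko, although the list went both ways, with 5 of 15 markers higher and 6 lower. Summed monocyte markers were 647 and 564 against 667 and 1091 FPKM, with 3 of 10 higher, and only cko replicate 2 was far above wt. Summed macrophage markers were 419 and 298 FPKM in wt and 308 and 522 FPKM in cko, with 2 of 11 higher. Summed lymphoid markers were 114 and 126 against 86.5 and 90.03 FPKM, with 4 of 7 lower. Beside these counts, 11.4% of all genes tested were higher and 4.95% were lower at an unadjusted p under 0.05. The hepatocyte regulator Hnf4a was at 0 in both cko libraries and at 0.131 and 0.088 FPKM in wt. The Y-linked gene Ddx3y was at 24.9 FPKM in wt replicate 2, at 0.00866 FPKM in wt replicate 1 and at 0 in cko. Xist was at 0.0119 FPKM in wt replicate 2 and at 4.91 to 7.98 FPKM in the other 3 libraries. By these genes wt replicate 2 was male and the other libraries were female, so that sex differed within wt and between the groups. Among the members, Ndufb11 and Cox7b are X-linked. The part of these differences in the results below was not tested, and in bulk RNA fewer cells of a type and less RNA per cell cannot be told apart.

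The 13 mitochondrial genes spanned the widest range of levels. Highest was mt-Co1, the catalytic subunit of cytochrome c oxidase (chrMT:5328-6872), at 2551 and 2443 FPKM in wt and at 3019 and 2861 FPKM in cko. Both cko libraries lay above both wt libraries. The complex I subunit mt-Nd1 followed at 1543 and 1384 FPKM in wt and at 1111 and 1402 FPKM in cko, where the groups overlapped. The cytochrome b gene mt-Cytb, the only mitochondrial subunit of complex III, measured 1414 and 1282 FPKM in wt and 1039 and 1254 FPKM in cko, so that both cko libraries lay below both wt libraries. The levels of mt-Nd1 and mt-Cytb overlapped each other. These 3 genes made up 88.8% to 89.9% of the summed mitochondrial level in each library.

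**Figure D1:**
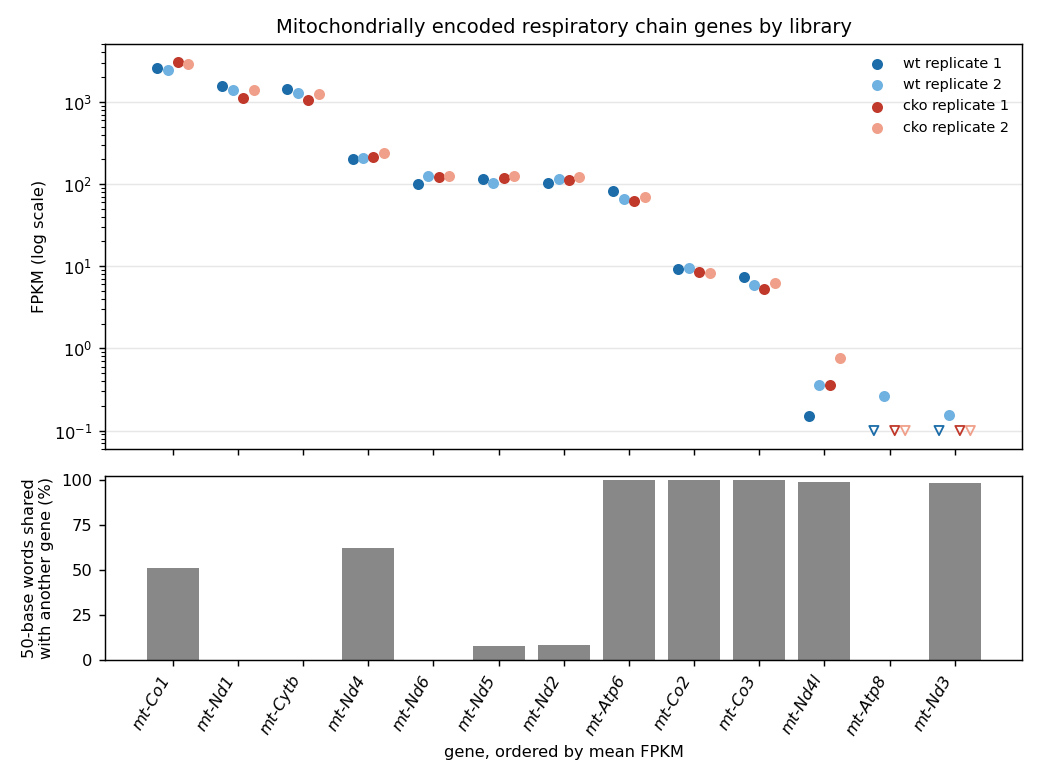
Upper panel, FPKM (log scale) of the 13 mitochondrial genes in each of the 4 libraries, with open triangles at the bottom for values of 0. Lower panel, percent of a gene's 50-base words that also occur in another annotated gene. Levels run from 3019 FPKM for mt-Co1 to 0 for mt-Nd3 and mt-Atp8, and 7 of the 13 genes share more than 50% of their words.

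Below these, mt-Nd4 lay at 203 to 236 FPKM, and the complex I subunits mt-Nd6, mt-Nd5 and mt-Nd2 lay at 99.4 to 126 FPKM with overlapping values. The ATP synthase subunit mt-Atp6 measured 82.6 and 65.2 FPKM in wt and 62.4 and 70.4 FPKM in cko. Oxidase subunits encoded by the same genome were far lower, mt-Co2 at 8.35 to 9.48 FPKM and mt-Co3 at 5.24 to 7.29 FPKM. The gene mt-Nd4l had 1 to 4 reads per library, and mt-Nd3 and mt-Atp8 had 1 read each in wt replicate 2 and 0 in the other libraries. Since 3 counts is the limit that a count of 0 allows, absence was not shown for them. These last 3 genes fell under the minimum of 1 FPKM and were not tested.

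Many of these genes have near-identical nuclear copies. Of the 50-base words of mt-Co2, 100% were also found in other annotated genes, as were 99.9% of those of mt-Co3, 99.5% of mt-Atp6, 98.8% of mt-Nd4l and 98.0% of mt-Nd3. The shares were 62.2% for mt-Nd4, 51.1% for mt-Co1, 8.19% for mt-Nd2 and 7.61% for mt-Nd5, and 0 for mt-Nd1, mt-Cytb, mt-Nd6 and mt-Atp8. Most of the copies are unprocessed pseudogenes in a row on the minus strand of chromosome 1, from 24611535 to 24616197 (GRCm38). A stretch of mt-Co2 is shown with its copies on chromosomes 1 and 2, because reads from such a stretch cannot be placed by sequence. Capitals mark bases that differ from mt-Co2. The stretches lie at chrMT:7213-7302 (plus strand), chr1:24615276-24615365 (minus strand) and chr2:22587673-22587762 (minus strand) of GRCm38.
mt-Co2: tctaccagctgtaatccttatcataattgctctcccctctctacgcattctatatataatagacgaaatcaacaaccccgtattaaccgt
Gm28661: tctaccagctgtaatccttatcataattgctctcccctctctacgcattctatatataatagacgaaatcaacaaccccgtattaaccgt
Gm13341: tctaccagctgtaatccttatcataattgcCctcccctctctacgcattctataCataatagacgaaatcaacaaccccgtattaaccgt
The copy in Gm28661 had 0 mismatches over these 90 bases and the copy in Gm13341 had 2.

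The pseudogenes varied in how close their values lay to those of the genes they resemble. Gm28661 was at 7.21 and 6.71 FPKM in wt and at 6.19 and 6.47 FPKM in cko, beside 8.35 to 9.48 FPKM for mt-Co2. Gm10925, the copy of mt-Atp6, was at 96.6, 77.2, 77.9 and 99.5 FPKM in wt replicates 1 and 2 and cko replicates 1 and 2. Gm28437, the copy of mt-Co3, was at 4.14 to 8.62 FPKM. Gm13341, the shorter match of mt-Co2 shown above, was far lower at 0 to 0.0794 FPKM. Gm13340 and Gm29216, which share words with mt-Co1, lay at 1.03 to 2.41 FPKM and at 32.0 to 45.5 FPKM, and Gm10222, the copy of mt-Nd4l, at 0.153 to 0.723 FPKM. How reads with several positions were treated is not given in the sources used here, and the levels of the 7 genes that share more than 50% of their words are therefore uncertain. Level did not follow sharing in each gene. While mt-Co1 was the highest with 51.1% shared words, mt-Atp8 was near 0 and shares no word with another annotated gene, although its last bases (chrMT:7766-7969) overlap mt-Atp6 (chrMT:7927-8607). Across the 13 genes the Spearman rho of mean FPKM with the percent of shared words was -0.45, and that of mean FPKM with coding length was 0.75. Both describe genes of the same genome in the same 4 libraries.

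The mitochondrial genes were then compared between genotypes. Of the 10 tested, 0 passed an unadjusted p under 0.05 in limma on log2(FPKM + 1) in either direction, 3 (mt-Co1, mt-Nd4 and mt-Nd5) lay higher in both cko libraries and 2 (mt-Cytb and mt-Co2) lay lower in both. Over all 10779 genes tested, 11.4% were higher and 4.95% were lower at that p, and the groups did not overlap for 33.6% with cko above and for 18.0% with cko below. The smallest Benjamini-Hochberg adjusted p of the 10 genes was 0.434, for mt-Co1 (log2 fold change 0.24, SE 0.14). The log2 fold change was -0.24 for mt-Cytb (SE 0.16) and -0.23 for mt-Nd1 (SE 0.17). Their median was -0.02 against 0.09 over all genes tested. It was -0.13 against -0.01 when libraries were scaled by median-of-ratios factors, and 0.19 against 0.27 when they were scaled to equal totals without erythroid, hepatocyte and mitochondrial genes. Under the last scaling 2 of the 10, mt-Co1 and mt-Nd5, were higher at an unadjusted p under 0.05, beside 2370 of all 10796 genes tested there.

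The sum of all mitochondrial members was 6126 and 5739 FPKM in wt and 5811 and 6214 FPKM in cko, and the sum of all nuclear members was 3379 and 3312 FPKM in wt and 3088 and 3300 FPKM in cko. The 13 mitochondrial genes thus outweighed the 90 nuclear genes in each library. As a share of all FPKM, both sums lay higher in both cko libraries (exact two-sided permutation p = 0.333 for each). Nuclear members were at 0.687% and 0.725% in wt and 0.748% and 0.817% in cko. Mitochondrial members were at 1.25% and 1.26% against 1.41% and 1.54%. The total of all FPKM was 491983 and 457127 in wt and 412778 and 403900 in cko, so that these shares rest on unlike totals. Lyz2 alone was at 31306 and 32147 FPKM in wt and 10422 and 8127 FPKM in cko. As a share of counted reads, mitochondrial members were at 0.775% and 0.728% in wt and 0.766% and 0.800% in cko. There the groups overlapped (exact two-sided permutation p = 0.667). The log2 ratio of the mitochondrial to the nuclear FPKM sum was 0.86 and 0.79 in wt and 0.91 and 0.91 in cko. The difference of 0.09 was larger than the spread within each group, and its exact two-sided permutation p was 0.333, which is the smallest that 2 libraries against 2 allow. The direction turned with the genes included. Over the 6 mitochondrial and 70 nuclear members with less than 10% shared words, which leaves out mt-Co1, the log2 ratio was 0.41 and 0.31 in wt and 0.13 and 0.30 in cko, a difference of -0.15.

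Mitochondrial transcripts did not all follow each other. Within a library, where no scaling between libraries enters, the log2 ratio of mt-Co1 to mt-Cytb was 0.85 and 0.93 in wt and 1.54 and 1.19 in cko, with both cko libraries above (exact permutation p = 0.333, two-sided). The log2 ratio of mt-Nd1 to mt-Cytb was 0.13 and 0.11 in wt and 0.10 and 0.16 in cko, where the groups overlapped. The ribosomal RNA gene mt-Rnr1 lay at 139 and 105 FPKM in wt and at 215 and 293 FPKM in cko, and mt-Rnr2 at 2912 and 2276 against 2790 and 3433 FPKM. These ratios were chosen after the values were seen.

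**Figure D2:**
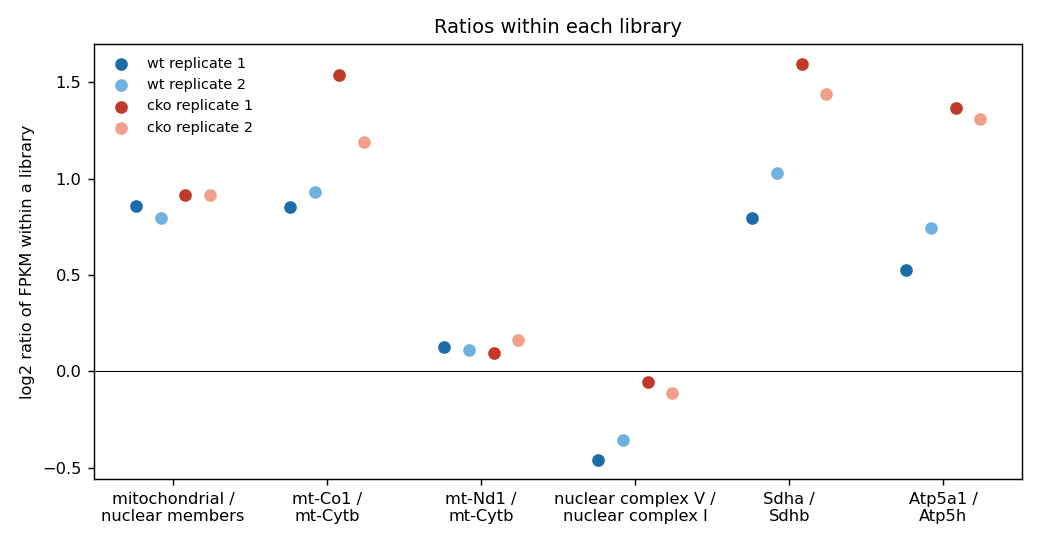
Log2 ratios of FPKM within each of the 4 libraries, for sums of members and for pairs of genes, each point 1 library. For mt-Co1 over mt-Cytb, nuclear complex V over nuclear complex I, Sdha over Sdhb and Atp5a1 over Atp5h both cko libraries lie above both wt libraries, while mt-Nd1 over mt-Cytb overlaps between 0.10 and 0.16. The pairs of genes were chosen after the values were seen, and the ratio of complex V to complex I was not planned, so that their separation is no test.

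The nuclear members were next set against all genes. Of the 94 members tested, 3 were higher in cko at an unadjusted p under 0.05 (Ndufaf5, Atp5a1 and Sdha) and 6 were lower (Ndufb11, Cox7b, Ndufs4, Ndufa6, Cox6c and Cox7a2), all of them nuclear. These are 3.19% and 6.38% of the members, beside 11.4% and 4.95% of all genes. Of the 103 members 0 reached the threshold of the study's methods, a log2 fold change of at least 1 in either direction with an adjusted p under 0.05, nor did any gene in the table (0.0%), and 0 passed a log2 fold change above 1 in either direction with an unadjusted p under 0.01, which 2.29% of all genes did. Over the members 35 fold changes were positive (37.2%, against 60.4% of all genes) and 59 were negative. Both cko libraries lay below both wt libraries for 31 members (33.0%, against 18.0% of all genes) and above them for 20 (21.3%, against 33.6%). Members are not independent replicates, and these shares carry no test. With a library left out, the median log2 fold change of the nuclear members ranged from -0.19 (without cko replicate 2) to -0.04 (without wt replicate 1). The median of all genes was 0.09 and 0.07 in these 2 fits.

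The median log2 fold change of the 84 nuclear members tested was -0.11, which is 0.20 below the median of all genes (0.09). With median-of-ratios scaling it was -0.21 against -0.01, and with scaling to equal totals without erythroid, hepatocyte and mitochondrial genes it turned to 0.09 against 0.27. The sign of the median thus depended on the scaling, whereas the nuclear members lay 0.11 to 0.28 below all genes in each of the 15 fits made.

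**Figure D3:**
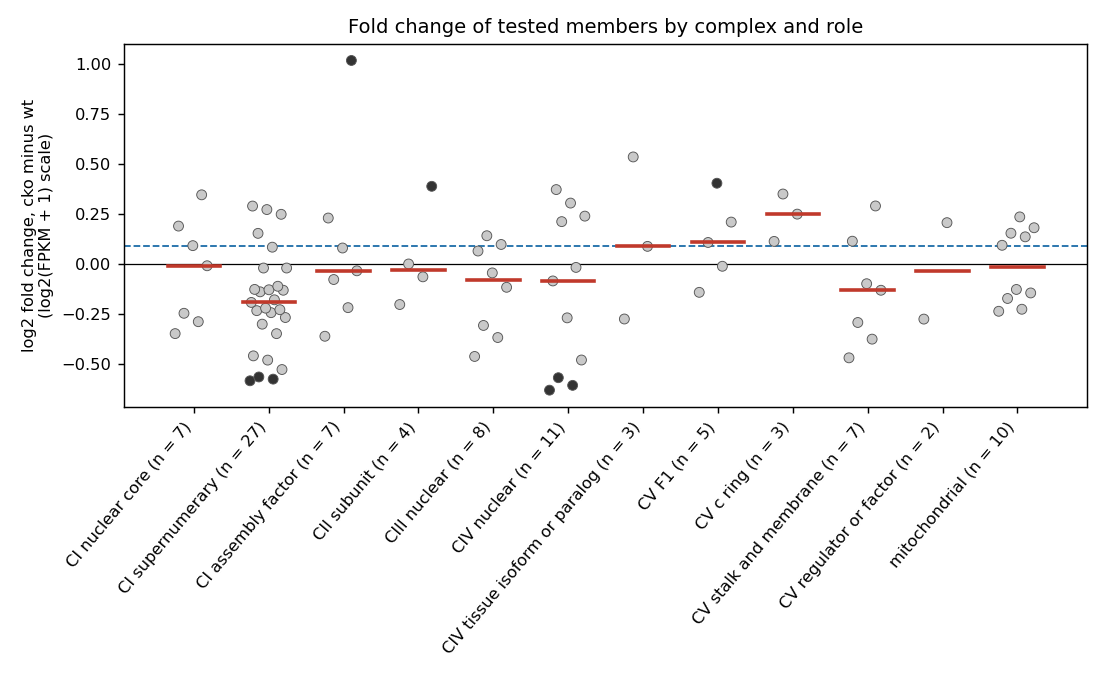
Log2 fold change of each tested member by complex and role (cko minus wt, log2(FPKM + 1) scale), with dark points for an unadjusted p under 0.05, red bars for the median of each role, a solid line at 0 and a dashed line at 0.09, the median of all genes tested. The supernumerary subunits of complex I have their median at -0.19 and the c ring genes at 0.25. Scaling moves all points together, and under the total-based scaling the dashed line would be at 0.27 and these medians at -0.02 and 0.46.

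Complex I, the NADH dehydrogenase, held the largest group. Its 27 tested supernumerary subunits, which surround the catalytic core and are needed for assembly and stability, had 22 negative and 5 positive fold changes and a median of -0.19. Both cko libraries lay below both wt libraries for 11 of them (40.7%, against 18.0% of all genes) and above for 2 (7.41%, against 33.6%). With the other scalings their median was -0.30 and -0.02, which is 0.29 and 0.28 below that of all genes. The 7 nuclear core subunits, which hold the flavin and the iron-sulphur clusters, had a median of -0.01 (-0.12 and 0.19 with the other scalings), with 3 lying higher and 3 lower in both cko libraries.

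The member with the smallest p was Ndufb11, a membrane-arm subunit encoded at chrX:20615326-20617619. It measured 151 and 137 FPKM in wt and 97.1 and 96.3 FPKM in cko, so that both cko libraries lay well below both wt libraries. The log2 fold change was -0.57 (SE 0.13), with an unadjusted p of 0.00655 and a Benjamini-Hochberg adjusted p of 0.214 in limma. Ndufs4 (chr13:114287795-114388258), whose product is needed for the last steps of complex I assembly, measured 50.7 and 40.8 FPKM in wt and 26.8 and 33.5 FPKM in cko (log2 fold change -0.59, SE 0.19). Ndufa6 (chr15:82350139-82354291) measured 59.0 and 48.7 FPKM in wt and 31.2 and 40.6 FPKM in cko (log2 fold change -0.58, SE 0.19). Neither gene overlapped between the groups. The highest supernumerary subunit, Ndufb9, was at 152 and 146 FPKM in wt and at 113 and 144 FPKM in cko, where 1 cko library came close to wt (unadjusted p = 0.228).

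Core subunits differed in sign. Ndufv1, which binds NADH, measured 27.0 and 30.4 FPKM in wt and 35.7 and 37.6 FPKM in cko (log2 fold change 0.35, SE 0.15, unadjusted p = 0.0589). Its partner in the NADH-binding module, Ndufv2, measured 28.8 and 23.0 FPKM in wt and 19.1 and 20.9 FPKM in cko (log2 fold change -0.35, SE 0.17, unadjusted p = 0.0921). Ndufs8, which carries iron-sulphur clusters and was the highest core subunit, measured 72.7 and 68.3 FPKM in wt and 53.1 and 62.2 FPKM in cko. Ndufs1, the largest subunit, was level at 16.4 to 17.3 FPKM. Groups did not overlap for the first 3 of these 4 genes.

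Among the 7 tested assembly factors the median was -0.03 (-0.11 and 0.12 with the other scalings). Ndufaf5, which modifies a core subunit during early assembly, lay at 0.528 and 1.31 FPKM in wt and at 2.09 and 3.70 FPKM in cko, from 21, 44, 70 and 117 reads. Its log2 fold change of 1.02 (SE 0.34, unadjusted p = 0.0248, adjusted p = 0.253 in limma) was the highest among the members. The members Ndufb2, Ndufb6 and Ndufaf2 had means under 1 FPKM and were not tested, and Ndufaf2 shares 64.1% of its words with another annotated gene.

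Complex II, succinate dehydrogenase, links the chain to the citric acid cycle. Sdha (chr13:74322254-74350280), the flavin-carrying catalytic subunit, measured 67.1 and 66.2 FPKM in wt and 86.1 and 89.1 FPKM in cko. All cko values lay above wt (log2 fold change 0.39, SE 0.13, unadjusted p = 0.0271, adjusted p = 0.257). The iron-sulphur subunit Sdhb measured 38.7 and 32.5 FPKM in wt and 28.5 and 32.9 FPKM in cko, and the groups overlapped. The membrane anchor Sdhd was the highest of the 4 at 219 and 264 FPKM in wt and 210 and 251 FPKM in cko, and Sdhc lay at 8.81 to 15.0 FPKM. Within a library the log2 ratio of Sdha to Sdhb was 0.79 and 1.03 in wt and 1.59 and 1.44 in cko. This pair was chosen after the values were seen, so that its separation is no test.

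The 8 nuclear members of complex III had 0 genes under an unadjusted p of 0.05 in either direction in limma. Of all genes, 11.4% were higher and 4.95% were lower at that p. Both cko libraries lay below both wt libraries for 3 members (37.5%, against 18.0% of all genes), Uqcrb, Uqcrq and Uqcrh. They lay above wt for 0 members (33.6% of all genes). Uqcrc1, a core protein of the complex and its highest member, lay at 95.3 and 110 FPKM in wt and at 107 and 107 FPKM in cko. Uqcrfs1, the Rieske iron-sulphur protein, lay at 29.2 to 36.4 FPKM. The median was -0.08 (-0.19 and 0.11 with the other scalings).

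Complex IV, cytochrome c oxidase, held 3 of the 6 lower members. Cox7b (chrX:106015700-106022450) measured 17.7 and 13.3 FPKM in wt and 9.89 and 9.22 FPKM in cko (log2 fold change -0.63, SE 0.19). Cox6c (chr15:35925886-35938246) measured 21.6 and 16.7 FPKM in wt and 10.6 and 13.8 FPKM in cko (log2 fold change -0.61, SE 0.21). Cox7a2 (chr9:79755361-79759878) measured 100.5 and 74.7 FPKM in wt and 52.2 and 64.5 FPKM in cko (log2 fold change -0.57, SE 0.20). All 3 encode small membrane subunits, none overlapped between the groups, and their adjusted p were 0.236, 0.261 and 0.269 in limma. Other subunits of the complex went both ways. Cox8a, also a small membrane subunit, measured 136 and 146 FPKM in wt and 164 and 163 FPKM in cko (unadjusted p = 0.162), and the log2 fold change of Cox7c was -0.02. Cox5b was at 9.02 and 12.3 FPKM in wt and 13.4 and 14.6 FPKM in cko (unadjusted p = 0.109), and Cox5a was at 6.02 and 5.23 against 7.16 and 7.18 FPKM (unadjusted p = 0.122). Ndufa4, counted with complex IV, measured 27.6 and 19.0 FPKM in wt and 13.9 and 18.7 FPKM in cko (log2 fold change -0.48). Cox4i1 had a log2 fold change of -0.27, and both genes lay lower in both cko libraries. Of the 11 tested subunits other than tissue isoforms and paralogs, 7 fold changes were negative and 4 positive. Both cko libraries lay below both wt libraries for 5 of these 11 (45.5%, against 18.0% of all genes) and above for 3 (27.3%, against 33.6%). The median of the 14 tested nuclear members was -0.05 (-0.20 and 0.14 with the other scalings).

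**Figure D4:**
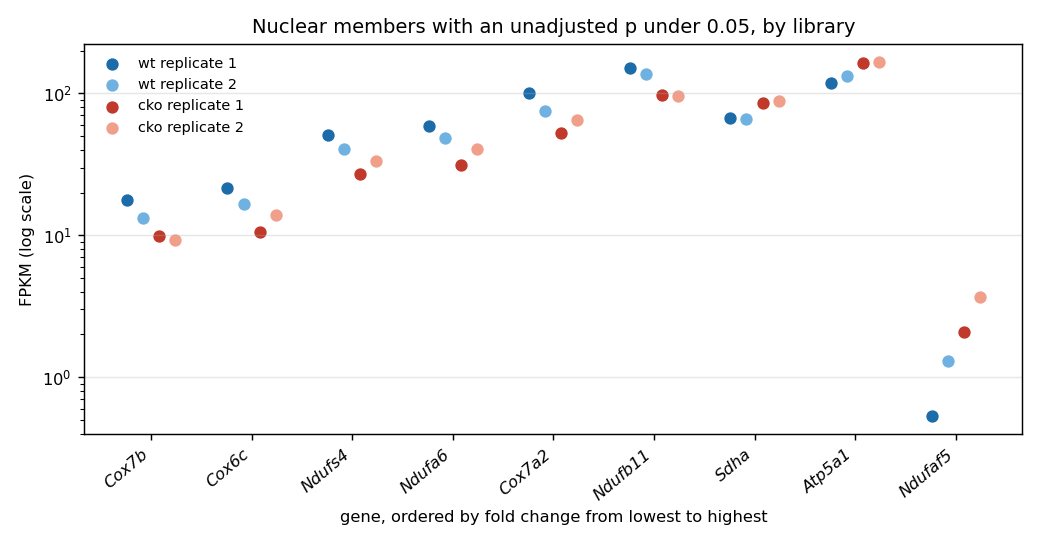
FPKM (log scale) of the 9 members with an unadjusted p under 0.05, each point 1 library, ordered by fold change. The 6 genes at the left are lower and the 3 at the right higher in both cko libraries, and none overlaps between the groups. When libraries were scaled to equal totals without erythroid, hepatocyte and mitochondrial genes, 0 members were called lower and 14 higher. Of all 10796 genes tested there, 198 were called lower and 2370 higher, and their median moved to 0.27. These totals still hold Lyz2 and the neutrophil markers, whose summed levels were lower in cko.

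Tissue isoforms of complex IV were low, and their ubiquitous partners were higher in each library. Cox4i1 measured 72.7 and 74.2 FPKM in wt and 61.2 and 60.2 FPKM in cko, while Cox4i2, the isoform known from lung and low oxygen, lay at 0.286 to 2.65 FPKM, from 5 reads in wt replicate 1. The muscle isoforms Cox6a2 and Cox7a1 lay at 0 to 0.399 FPKM beside Cox6a1 at 157 to 178 FPKM. The testis isoform Cox6b2 lay at 1.73 to 2.64 FPKM beside Cox6b1 at 8.89 to 13.9 FPKM. Ndufa4l2 lay at 0.437 to 1.27 FPKM beside Ndufa4, a subunit of complex IV despite its name, at 13.9 to 27.6 FPKM. Cox7a2l, which takes part in joining complexes III and IV into supercomplexes, was the highest nuclear member of complex IV at 185 to 230 FPKM, with overlapping groups.

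Complex V, the ATP synthase, had a median of 0.11 (0.01 and 0.27 with the other scalings), which is 0.02 above all genes. It turned to -0.12 without wt replicate 2 and to -0.03 without cko replicate 1. The F1 head subunit Atp5b, the catalytic beta subunit and the highest nuclear member, measured 260.3 and 269 FPKM in wt and 293 and 319.6 FPKM in cko (log2 fold change 0.21, SE 0.13, unadjusted p = 0.170). Atp5a1 (chr18:77773729-77782869), the alpha subunit, measured 119 and 132 FPKM in wt and 165 and 167 FPKM in cko (log2 fold change 0.40, SE 0.13, adjusted p = 0.255 in limma). Both lay higher in both cko libraries, whereas the central shaft subunit Atp5c1 measured 159 and 158 FPKM in wt and 144 and 143 FPKM in cko (unadjusted p = 0.308). The small F1 subunits Atp5d and Atp5e lay at 3.06 to 3.57 FPKM and at 6.72 to 9.20 FPKM.

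Atp5g1, Atp5g2 and Atp5g3 encode the same mature c subunit, which forms the ring that turns in the membrane. Atp5g2 (chr15:102662864-102672352) measured 30.3 and 27.7 FPKM in wt and 37.4 and 37.0 FPKM in cko (log2 fold change 0.35, SE 0.14, unadjusted p = 0.0508), and 38.4% of its words occur in other annotated genes. Atp5g3 measured 26.1 and 23.3 FPKM in wt and 29.7 and 29.3 FPKM in cko, and Atp5g1 lay at 7.52 to 9.33 FPKM. All 3 fold changes were positive under each scaling, with medians of 0.25, 0.13 and 0.46.

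The 7 subunits of the stalk and membrane part had 5 negative fold changes and a median of -0.13 (-0.25 and 0.08 with the other scalings). Atp5h, a peripheral stalk subunit, measured 82.8 and 78.8 FPKM in wt and 64.0 and 67.5 FPKM in cko (log2 fold change -0.29, unadjusted p = 0.0735). Atp5sl and Atp5s, which bear the name of the complex without being subunits, lay at 4.89 to 7.51 FPKM and at 1.28 to 2.38 FPKM. Within a library the log2 ratio of Atp5a1 to Atp5h was 0.52 and 0.74 in wt and 1.37 and 1.31 in cko. This pair, too, was chosen after the values were seen, and its separation is no test. Summed over each complex, the log2 ratio of nuclear complex V to nuclear complex I was -0.46 and -0.36 in wt and -0.05 and -0.11 in cko, a difference of 0.32 beyond the spread within groups (SD 0.07 in wt and 0.04 in cko). Its exact two-sided permutation p was 0.333, the smallest possible here, and this ratio was not among the planned comparisons.

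Lower and higher nuclear members differed in the length of their coding sequence. All 6 lower members have a coding length under 600 bases and all 3 higher members one of at least 600 bases, a limit chosen after the values were seen. Of the 58 shorter members 17 had positive fold changes, with a median of -0.13 (-0.25 and 0.06 with the other scalings), and 23 lay lower and 9 higher in both cko libraries. Of the 26 longer members 13 were positive, with a median of 0.03 (-0.09 and 0.24), and 6 lay lower and 8 higher. All protein-coding genes tested showed the same order, with a median of -0.03 for the 1313 shorter and 0.10 for the 7820 longer genes. Of the shorter genes 381 lay lower and 304 higher in both cko libraries, and of the longer genes 1333 lay lower and 2738 higher.

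The Spearman rho of fold change with coding length was 0.32 over the 84 nuclear members and 0.16 over 9133 protein-coding genes. Between the wt libraries (replicate 2 minus replicate 1) it was 0.35 and 0.11, and between the cko libraries it was -0.16 and -0.11, so that libraries of the same genotype differed along length as well. These are descriptions across genes of the same 4 libraries. After the trend of each library on exon length was removed, 2 members were higher and 10 lower at an unadjusted p under 0.05, and the nuclear median lay 0.17 below that of all genes.

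**Figure D5:**
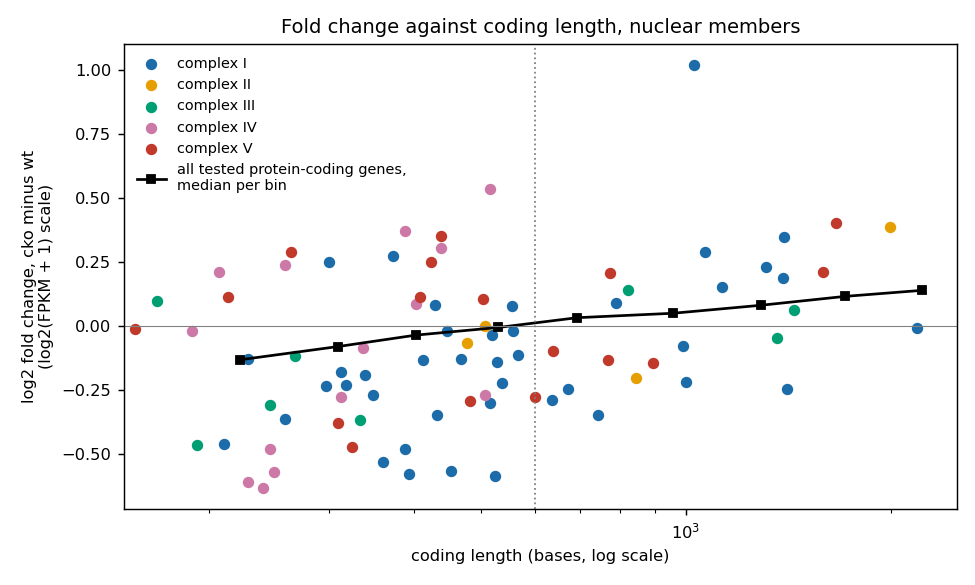
Log2 fold change (cko minus wt, log2(FPKM + 1) scale) of the tested nuclear members against coding length in bases (log scale), coloured by complex, with a dotted line at 600 bases. The black line joins the medians of all tested protein-coding genes in 9 bins of length and runs from -0.13 in the shortest to 0.14 in the longest bin. Under the total-based scaling the medians of the shorter and longer members moved to 0.06 and 0.24.

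Promoters of the nuclear members are known for sites of the factors NRF1, of the ETS family (NRF2, also called GABP) and YY1. RefSeq (GRCm38.p6) gave a sequence of 300 bases, 250 before and 50 after the start, for 72 of the 90 nuclear members. Only the first listed start of each gene was used. The NRF1 motif (GCGC on either side of any base followed by T), searched on both strands, was found in 18 of these (25%), against 4.78% of 27025 promoters. The ETS letters CCGGAAG were in 17 (23.6%, against 9.12%), the YY1 letters AAGATGGC in 9 (12.5%, against 2.88%) and the letters TATAAA in 5 (6.94%, against 14.2%). At least 1 of the first 3 motifs was in 38 of 72 (52.8%), against 15.2% of all promoters. A match is a description of the letters and not of a bound site.

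The NRF1 motif occurred in members that lay higher and in members that lay lower in cko. Among members under an unadjusted p of 0.05 in limma with a promoter sequence, it was in the higher Ndufaf5 and Sdha and the lower Ndufa6. The lower Ndufb11, Cox7b, Ndufs4 and Cox7a2 had 0 matches. The 250 bases before the RefSeq start are shown for both members of a higher pair, Sdha and Atp5g2, and of a lower pair, Ndufb4 and Ndufb11, with NRF1 matches in capitals. The windows are chr13:74350241-74350490 for Sdha, chr15:102671048-102671297 for Atp5g2, chr16:37654369-37654618 for Ndufb4 and chrX:20617620-20617869 for Ndufb11, all on the minus strand and written 5′ to 3′ along the gene.
Sdha: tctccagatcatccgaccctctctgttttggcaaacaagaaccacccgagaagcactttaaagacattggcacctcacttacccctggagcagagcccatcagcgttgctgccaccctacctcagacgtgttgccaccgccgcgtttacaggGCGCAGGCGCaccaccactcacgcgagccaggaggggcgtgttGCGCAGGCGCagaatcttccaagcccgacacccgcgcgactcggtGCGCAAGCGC
Atp5g2: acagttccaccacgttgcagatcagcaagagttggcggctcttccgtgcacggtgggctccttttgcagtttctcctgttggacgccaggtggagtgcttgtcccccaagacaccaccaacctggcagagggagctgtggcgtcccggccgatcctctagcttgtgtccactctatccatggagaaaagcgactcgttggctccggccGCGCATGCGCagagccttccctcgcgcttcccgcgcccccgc
Ndufb4: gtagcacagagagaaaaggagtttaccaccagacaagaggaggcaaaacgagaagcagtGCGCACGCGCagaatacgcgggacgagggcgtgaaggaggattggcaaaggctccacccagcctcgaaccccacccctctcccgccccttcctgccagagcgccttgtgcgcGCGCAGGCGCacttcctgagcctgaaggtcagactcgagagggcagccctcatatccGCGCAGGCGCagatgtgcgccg
Ndufb11: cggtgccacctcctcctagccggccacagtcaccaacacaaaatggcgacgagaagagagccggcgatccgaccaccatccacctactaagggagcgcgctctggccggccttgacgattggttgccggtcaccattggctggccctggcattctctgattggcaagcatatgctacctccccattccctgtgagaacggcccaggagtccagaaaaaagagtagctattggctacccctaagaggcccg
Sdha and Ndufb4 had 3 matches each, Atp5g2 had 1 and Ndufb11 had 0. Ndufb4, a membrane-arm subunit of complex I, measured 5.23 and 4.90 FPKM in wt and 2.87 and 3.86 FPKM in cko (log2 fold change -0.48, SE 0.20, unadjusted p = 0.0549). NRF1 matches thus stood before genes on either side of wt, and a difference between the directions was not tested. Of the 4 genes shown, Atp5g2 and Ndufb4 did not pass an unadjusted p under 0.05 in limma. The window of Atp5g2 lies inside the annotated span of the gene (chr15:102662864-102672352), downstream of its annotated start.

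Genes that serve the chain but lie outside the name rule were read from lists. The shares of all genes to read them against are 11.4% higher and 4.95% lower at an unadjusted p under 0.05. The 32 tested assembly factors of other complexes had 0 higher and 4 lower genes (12.5%), and a median of -0.05 (-0.15 and 0.13 with the other scalings). Coa6, which takes part in delivering copper to complex IV, measured 18.3 and 11.5 FPKM in wt and 5.21 and 6.81 FPKM in cko (log2 fold change -1.16, SE 0.26, unadjusted p = 0.00514, adjusted p = 0.210 in limma). Cox14, an assembly factor of the mt-Co1 module, measured 14.1 and 13.2 FPKM in wt and 9.08 and 9.46 FPKM in cko. The copper chaperone Cox17 measured 1.26 and 1.55 FPKM in wt and 1.88 and 3.44 FPKM in cko (unadjusted p = 0.0943).

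Genes of mitochondrial gene expression and import were read against the same shares, 11.4% higher and 4.95% lower. The 70 tested mitochondrial ribosomal protein genes had 0 higher and 2 lower genes (Mrps33 and Mrpl41) and a median of -0.07 (-0.15 and 0.12 with the other scalings). Mrps33 measured 18.0 and 17.8 FPKM in wt and 11.5 and 12.2 FPKM in cko (adjusted p = 0.216 in limma). Of 22 tested genes for copying and transcribing mitochondrial DNA, Elac2, which trims tRNAs, was higher (1.48 and 1.40 FPKM in wt, 4.003 and 2.55 FPKM in cko) and Trmt10c, of the enzyme that cuts at the other tRNA end, was lower (19.7 and 18.3 against 11.2 and 12.4 FPKM) at an unadjusted p under 0.05. Of 20 tested import genes, Timm50 was higher and Timm21 was lower, and of 8 electron carriers and enzymes that feed ubiquinone or cytochrome c 0 passed in either direction in limma.

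Regulators of mitochondrial biogenesis had mostly positive fold changes, in 12 of 13 tested (60.4% over all genes), with a median of 0.23 (0.13 and 0.44 with the other scalings). With the other scalings 10 and 12 of the 13 were positive, beside 5277 of 10737 and 8375 of 10796 genes tested. Without those scalings 1 was called at an unadjusted p under 0.05 in limma, Esrra. This nuclear receptor, which acts with PGC-1 coactivators on respiratory chain genes, measured 2.25 and 2.32 FPKM in wt and 5.72 and 3.81 FPKM in cko (log2 fold change 0.79, SE 0.23, unadjusted p = 0.0160, adjusted p = 0.231 in limma). Hif1a, the oxygen-responsive factor, measured 11.3 and 13.7 FPKM in wt and 15.5 and 34.7 FPKM in cko (unadjusted p = 0.0651), where cko replicate 2 alone was far above the others.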

How the data were processed

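RNA-seq of 4 libraries (2 wt, 2 cko, grouped by the genotype in their labels) was analysed. The authors deposited FPKM per gene, 1 file per library, with annotation columns that were not used, and the files hold no columns of comparisons. The submitters' processing notes name Bowtie2 2.2.3, TopHat2 2.0.12, HTSeq 0.6.0 and mm9, whereas 92.7% of the genes have the position that GENCODE M21 gives on GRCm38, which was used here for lengths. Strand and treatment of reads with several positions are not given in the sources used here. As values were whole multiples of 1 read, reads were recovered for 95.0% of genes and 97 members (whole within 0.02, or within 0.005 where the length was solved), which gave the counted reads per library. They entered a voom alternative. Values that rest on few reads carry a large counting error.

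On log2(FPKM + 1), limma 3.58.1 (lmFit, then eBayes with a trend, under R 4.3.3) was applied without covariates to all 10779 genes whose mean reached 1 FPKM, and p-values were adjusted over them by Benjamini-Hochberg. The pseudocount understates the change of low genes. The main fit was tested on simulated data with changes larger than those of the members and no shift in composition or length. That test does not cover changes of the size seen in the members. Sums and ratios were compared by exact permutation tests. Words of 50 bases were counted in the transcripts of all M21 genes, and motifs in RefSeq promoters. The members and gene lists were chosen with earlier results of these data known. Named were the mitochondrial genes, the highest member of each role, up to 6 higher and 6 lower members with the smallest p whose groups did not overlap, isoforms and c ring genes, up to 2 higher and 2 lower genes per pathway list, Pdcd1 and Lyz2. Other genes (among them Ndufv2, Ndufs1, Sdhb, Sdhc, Uqcrfs1, Cox5a, Atp5c1, Atp5h, Ndufb4 and the copies) were added after values were seen. Lyz2 was at 31306 and 32147 FPKM in wt and 10422 and 8127 FPKM in cko.

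Alternatives were median-of-ratios factors, equal totals without erythroid, hepatocyte and mitochondrial genes, a pseudocount of 0.1, no filter, a minimum of 5 FPKM, protein-coding genes only, no trend, a replicate block, voom on genes with at least 10 reads, and each library left out. Removal of the length trend and members with under 10% shared words were added after the data were seen. Python 3.11.15, pandas 2.3.3 and matplotlib 3.10.9 were used.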

Additional observations from a re-analysis of the deposited data

How the results depend on the processing

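Across all alternatives the members past a log2 fold change of at least 1 with an adjusted p under 0.05 numbered 0. The counts of members at an unadjusted p under 0.05 (3 higher, 6 lower) moved to 1 and 15 with median-of-ratios factors. They moved to 14 and 0 with equal totals without erythroid, hepatocyte and mitochondrial genes. They moved to 5 higher without a filter, to 1 higher without a trend, and to 10 lower with the length trend removed. By these settings all genes gave 818 and 855, 2370 and 198, 1682 higher, 1187 higher and 785 lower. With the replicate number as a block 1 member was higher and 2 were lower (all genes 908 and 339). Nothing states that the numbers pair libraries, and replicate differences of wt and cko correlated at -0.16 across genes, so that the libraries share only a number. The counts of members moved as well whenever a library was left out, which leaves a group without replicates. Voom on recovered reads called 2 genes of 13437 past an adjusted p of 0.05 and a log2 fold change of at least 1.

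Scaling moved the medians together. With median-of-ratios factors they were -0.21 for the nuclear members, -0.13 for the mitochondrial members, and -0.25, -0.15, -0.20 and 0.0061 for nuclear complexes I, II, IV and V. With equal totals without erythroid, hepatocyte and mitochondrial genes they were 0.093, 0.19, and 0.030, 0.17, 0.11, 0.14 and 0.27 for complexes I to V. The mitochondrial median was -0.10 without a filter and 0.093 over members with under 10% shared words, where complex IV was at -0.27 and the log2 ratio of mitochondrial to nuclear sums at -0.15. With the length trend removed, complexes I and V were at -0.23 and 0.020. With a library left out the nuclear median ranged from -0.19 to -0.039, complex I from -0.24 to -0.054, complex II from -0.14 to 0.21, complex III from -0.28 to -0.017, complex IV from -0.22 to -0.028 and complex V from -0.12 to 0.18. The lone library was then assumed to vary like the other group. Complex V was at -0.12 without wt replicate 2 and at -0.030 without cko replicate 1, and complex II was at 0.21 without wt replicate 2.

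Of 850 values of 62 named genes, 721 kept direction and side of the threshold, 73 lost and 36 gained it, and 20 turned in direction. With equal totals without erythroid, hepatocyte and mitochondrial genes those that turned were mt-Atp6 (0.066), mt-Co2 (0.065), mt-Co3 (0.012), Atp5f1 (0.080), Cox6a1 (0.13) and Sdhd (0.15). With median-of-ratios factors they were mt-Nd2 (-0.025), Cox7a2l (-0.031) and Uqcrc1 (-0.054), and with the length trend removed Uqcrc1 (-0.015). With a library left out the range was -0.31 to 0.022 for mt-Atp6, -0.0083 to 0.32 for mt-Nd6, -0.059 to 0.47 for Atp5sl, -0.038 to 0.21 for Cox7a2l, -0.20 to 0.067 for Sdhd, -0.037 to 0.17 for Uqcrc1, -0.19 to 1.26 for Cox4i2 and -0.056 to 0.53 for Cox6b1. The cause of these changes was not tested. Limits are 2 libraries per group, sex-linked genes that set wt replicate 2 apart from the other libraries, and copies of mitochondrial genes. Summed erythroid, hepatocyte and lymphoid markers were also lower in cko, and summed monocyte markers were clearly higher only in cko replicate 2. Summed neutrophil markers were lower in both cko libraries as well, although 5 of the 15 markers were higher and 6 lower at an unadjusted p under 0.05 in limma.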
